A study of Mus musculus with 4 samples.

Results

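Mitochondrial ribosomal proteins build the ribosome of the mitochondrial matrix, the mitoribosome. They are encoded in the nucleus, made in the cytosol and imported, whereas the ribosomal RNAs on which they assemble are transcribed from mitochondrial DNA. The mitoribosome makes only the few hydrophobic subunits of the respiratory chain and of ATP synthase that mitochondrial DNA still encodes, so its output has to be matched with the many subunits that come from the nucleus. Its large subunit holds the peptidyl transferase centre, and its small subunit binds and decodes the messenger RNA. Many of its proteins have a counterpart in bacterial ribosomes and the others are particular to mitochondria.

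The members are the genes whose symbol begins with Mrpl or Mrps followed by a number, without pseudogenes, and whose normalised count was at least 10 in at least 2 of 4 libraries. There were 77 such genes of 18547 that reached this minimum among all 55421 gene rows. Of them, 50 belong to the large subunit and 26 to the small subunit. Mrps36, which keeps the name but is not part of the ribosome structure, was counted with the members and left out of both subunits. One more gene with such a name, Mrpl53, had 0 reads in all 4 libraries and so fell outside the minimum, and 5 pseudogenes of these genes were left out. The member nearest the minimum was Mrps34, with a mean of 141 over the 4 libraries.

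The libraries are bulk RNA-seq of YFP+ neural stem cells sorted from the brain of young adult mice, 2 from Opa1 KO and 2 from WT. In the Opa1 KO mice both copies of Opa1 are flanked by loxP sites (Opa1 flox/flox), and a Cre recombinase that tamoxifen switches on, driven by the Nestin promoter (Nestin-CreERT2), removes Opa1 and turns on a YFP reporter at Rosa26 in neural stem cells and their descendants. The WT mice carry the same Cre and YFP reporter and received tamoxifen as well, on a C57BL/6 background with both sexes used, per the study's methods, and the cells came from the subventricular zone, a germinal layer beside the lateral ventricle. Because the YFP label is inherited, the sorted cells can include progenitors and neuroblasts. Whether each library comes from its own animal is not stated in the labels, and p-values then measure only the spread between these libraries, which may be technical. Replicates are numbered 1 and 2 as in the titles, while the deposited columns number the same libraries 2 and 4, and what either number marks is not given. The study's text gives no single interval between tamoxifen and the sort.

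Opa1, the targeted gene and a GTPase of the inner mitochondrial membrane, had 837 and 739 normalised counts in Opa1 KO against 3039 and 2833 in WT, in the direction of the labels (log2 fold change -1.90, SE 0.13). The libraries held 19985853 and 22285901 reads in Opa1 KO and 23237326 and 22825629 reads in WT. Markers of stem cells and of neuroblasts were present in every library, and so were markers of other cells of the region, as all of the 44 genes of the 8 marker lists were counted above 0 in all libraries. Some of these lists differed more by replicate number than by genotype. The summed counts of 4 ependymal markers were 6313 and 23823 in Opa1 KO against 4181 and 26206 in WT, replicate 1 before replicate 2. Those of 4 microglial markers were 1283 and 335 in Opa1 KO against 1264 and 155 in WT. The sums of 6 markers of activated stem cells and progenitors were 37211 and 21764 in Opa1 KO against 40815 and 27982 in WT. At each number the progenitor sum was also lower in Opa1 KO. Other lists followed the genotype: the sums of 8 neuroblast markers were 104969 and 86508 in Opa1 KO against 136557 and 117693 in WT, and those of 8 markers of quiescent stem cells and astrocytes were 122039 and 127300 against 89776 and 87706. Likewise 6 pericyte and smooth muscle markers summed to 5784 and 7421 in Opa1 KO against 2720 and 4106 in WT, and 4 oligodendrocyte markers to 45397 and 45086 against 33884 and 15479. The 4 endothelial markers summed to 1266 and 3253 in Opa1 KO against 978 and 1501 in WT, where the groups overlapped and replicate 2 was higher in each. In bulk RNA, fewer cells of a type and less RNA per cell cannot be told apart, and the part of these shifts in the values of the mitochondrial ribosomal genes was not tested.

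Promoters of a few members are shown first, since the genes are scattered over 17 chromosomes and are read from their own start sites. RefSeq windows (GRCm38.p6) from 250 bases before to 50 after the start site matched 68 of the 77 members by symbol. The windows were searched on both strands for the cores of 3 factors known for promoters of genes of mitochondrial function: NRF1 (GCATGCG), YY1 (AAGATGG) and the ETS family, which includes GABP (CCGGAAG). The ETS and YY1 words can share the letters AAG, and the NRF1 word nearly reads the same on both strands, so windows and not matches were counted. The ETS core stood in 24 of the 68 windows (35.3%, against 9.12% of all 27025 windows of this length and 16.8% of the windows of 11251 protein-coding genes tested here). The YY1 core stood in 13 (19.1%, against 6.48% of all windows and 6.92% of those of tested genes) and the NRF1 core in 8 (11.8%, against 3.64% and 6.27%). At least one of them stood in 36 member windows (52.9%, against 17.7% of all windows and 26.9% of those of tested genes). In Mrps18a, Mrpl37, Mrps24, Mrpl42, Mrps27, Mrps7 and Mrpl35 the YY1 core lay only after the start site. In Mrpl49 it lay on both sides, and in the other windows with it before the start site. A match is a description of these letters only. The stretches that follow end at the last base before the start site, contain no annotated exon, and carry the ETS core, where they hold it on either strand, in capitals. Mrpl34 is shown as a member with a match and a high level per kb of exon, and Mrpl48 as the member with the highest fold change. Mrps27 and Mrps12 are shown as members that share their upstream stretch with a neighbour on the opposite strand. Capitals occur in Mrpl34 and Mrps27 only: Mrpl48 has no match in its window, and the ETS match of Mrps12 lies after the start site and its YY1 match before the printed stretch.
Mrpl34, chr8:71464676-71464925, plus strand: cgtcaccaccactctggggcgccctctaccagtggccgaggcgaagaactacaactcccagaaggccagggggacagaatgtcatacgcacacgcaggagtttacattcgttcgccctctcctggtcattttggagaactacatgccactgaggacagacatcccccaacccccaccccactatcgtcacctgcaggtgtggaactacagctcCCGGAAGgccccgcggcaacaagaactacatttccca
Mrps27, chr13:99344706-99344785, plus strand: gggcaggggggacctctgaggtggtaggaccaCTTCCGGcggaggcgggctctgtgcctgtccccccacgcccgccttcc
Mrps12, chr7:28741822-28741991, minus strand: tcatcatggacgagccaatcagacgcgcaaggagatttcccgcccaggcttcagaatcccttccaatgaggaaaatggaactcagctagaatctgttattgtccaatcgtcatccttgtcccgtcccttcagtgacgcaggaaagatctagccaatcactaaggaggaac
Mrpl48, chr7:100608302-100608551, minus strand: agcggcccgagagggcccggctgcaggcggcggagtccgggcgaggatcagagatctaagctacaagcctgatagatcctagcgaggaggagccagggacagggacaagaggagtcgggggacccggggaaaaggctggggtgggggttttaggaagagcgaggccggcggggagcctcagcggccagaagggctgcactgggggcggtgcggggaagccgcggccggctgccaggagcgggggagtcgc

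Many members start back to back with another gene. Within 1 kb upstream, 18 of the 77 members (23.4%) had the start of a protein-coding gene on the opposite strand, against 1378 of 14428 protein-coding genes tested (9.55%). The distance was at most 210 bases in 17 of the 18 pairs, with a median of 82 bases. Some of these partners also serve mitochondrial translation. Mrps12 lies 172 bases from Sars2, the mitochondrial seryl-tRNA synthetase, which had 419 and 277 normalised counts in Opa1 KO against 442 and 324 in WT. Mrps27 lies 81 bases from Ptcd2, a pentatricopeptide repeat protein of mitochondrial RNA, with 668 and 738 counts in Opa1 KO against 735 and 756 in WT. The log2 fold changes were -0.06 for Mrps12 and -0.15 for Sars2 (SE 0.30), and -0.09 for both Mrps27 and Ptcd2 (SE 0.14 for Ptcd2), and in each partner the groups overlapped. Over the 18 pairs the median log2 fold change was -0.07 for the members and -0.10 for the partners, of which 14 were below 0 and 4 above. Mrps11 and Mrpl46 are members that start on opposite strands at one locus of chromosome 7 and share 173 exon bases.

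The level of a member was read per length. Per kb of all its annotated exons, the mean over the 4 libraries ran from 68.2 normalised counts per kb for Mrps34 to 1380 for Mrpl28, with a median of 339. The middle of this range was narrow: the 10th percentile was 124 and the 90th 695, a 5.59-fold span. The highest levels were those of Mrpl28, Mrpl34, Mrpl27 and Mrpl18. Mrpl28 is the counterpart of a bacterial large-subunit protein and had 1305 and 1131 counts per kb in Opa1 KO against 1717 and 1367 in WT. Its WT replicate 1 stood apart from the other 3 libraries. Mrpl34, a small protein of the large subunit, averaged 1116 counts per kb, Mrpl27, which in bacteria reaches towards the peptidyl transferase centre, 991, and Mrpl18, which in bacteria binds 5S rRNA, 851.

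The lowest levels were those of Mrps34 (68.2 counts per kb), Mrpl33 (86.7), Mrps25 (89.7) and Mrpl19 (93.8), and most of these depended on the gene model. Mrps34 shares 77.8% of its exon bases with other genes, Mrps25 69.8% and Mrpl19 36.0%, and the strand setting of the count is not given in the sources used here. For Mrps34, 37.0% of the exon bases are shared with Nme3 on the same strand, which a strand setting would not separate. Nme3 had a mean of 0 counts, and how shared reads were treated was not tested. Per kb of exon not shared with another gene, Mrps34 came to 307 counts and Mrps25 to 297, although per kb of the principal transcript they stayed among the lowest, at 153 and 97.1. Mrpl19 stayed low under every length, with 102 counts per kb of its principal transcript and 147 per kb of unshared exon. Mrpl33 has 7326 annotated exon bases but a principal transcript of 478 bases, per kb of which it came to 1329 counts, the 6th highest level of the 77. Mrpl42 moved in the same way, with 537 counts per kb of exon and 2967 per kb of its principal transcript, the highest of all under that model, where the median was 555. Mrpl53, at 0 in all libraries, shares 88.0% of its exon bases with Gm42688, a gene on the same strand. In all, 45 members share no exon base with another gene and 17 share over 10 percent.

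**Figure D1:**
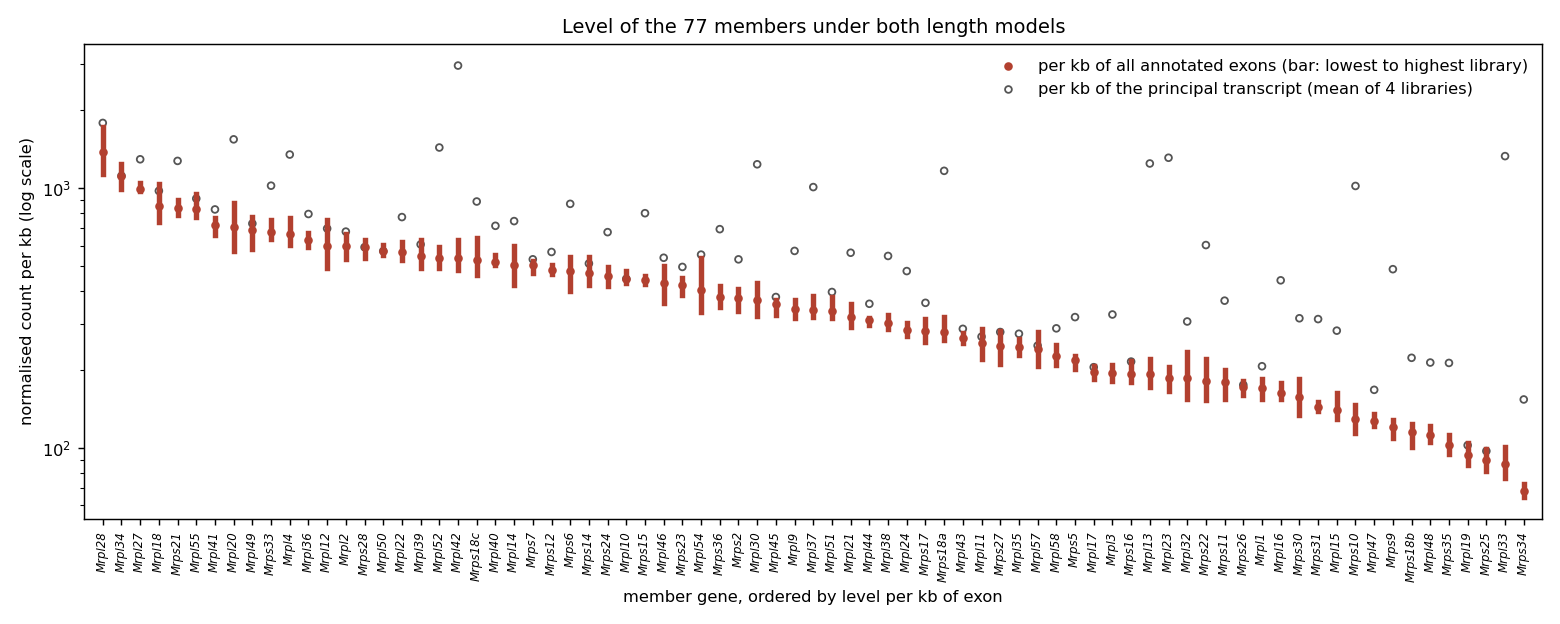
Level of each member as normalised count per kb on a log axis, ordered by the level per kb of all annotated exons (filled points, mean of the 4 libraries, with a bar from the lowest to the highest library) and with the level per kb of the principal transcript (open points). The order runs from Mrpl28 at 1380 to Mrps34 at 68.2 counts per kb of exon, the bars of neighbours overlap along most of it, and Mrpl42 and Mrpl33 stand far higher under the other length.

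Between genotypes the mitochondrial ribosomal genes differed little. No member was called at an adjusted p under 0.05 by limma-trend, where the background was 0% of genes (smallest adjusted p among members 0.998), by DESeq2, where it was 0.35%, or by edgeR, where it was 0%. No member reached an unadjusted p under 0.05 by any of these tools, against 3.59% of all genes by limma-trend. The smallest unadjusted p of a member was 0.115 by limma-trend. Opa1 itself was called by DESeq2 (adjusted p = 1.6e-25) but not by limma-trend (adjusted p = 0.998) or edgeR. With a term for the replicate number added, limma-trend also called Opa1 (adjusted p = 4.7e-04). The lack of calls by edgeR and by limma-trend with genotype only therefore does not show a lack of difference. The log2 fold changes ran from -0.33 for Mrpl28 to 0.15 for Mrpl48, and 68 of the 77 lay between -0.2 and 0.2. The 95% confidence intervals of limma-trend all lay between -1 and 1 on the log2 scale, with the lowest bound at -0.999, for Mrpl54, and the highest at 0.68, for Mrps34. The median SE was 0.15, against 0.24 over all genes.

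**Figure D2:**
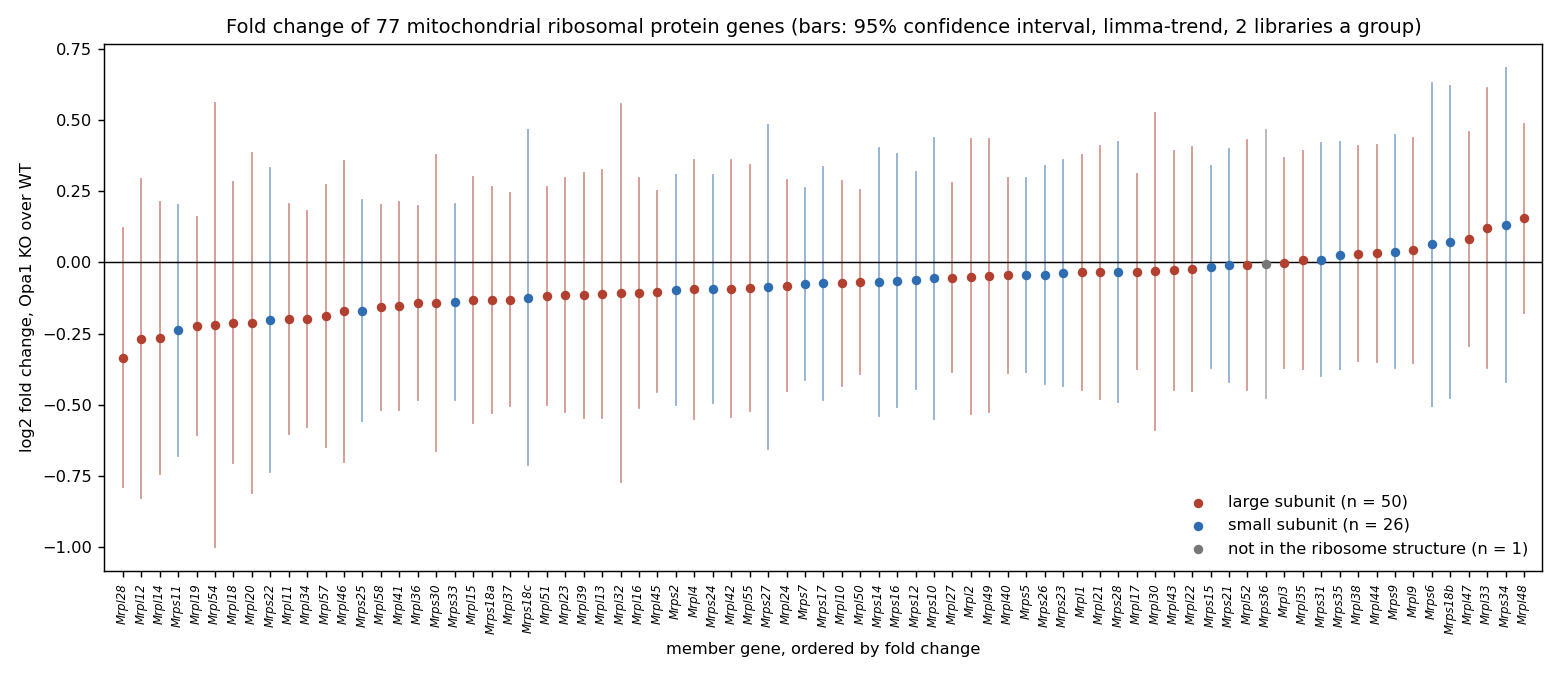
Log2 fold change of Opa1 KO over WT for each of the 77 members, ordered from lowest to highest, with 95% confidence intervals of limma-trend and colours for the large (n = 50) and small (n = 26) subunit. The points run from -0.33 to 0.15, 64 of them lie below 0, and the interval of every member includes 0.

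The estimates leaned to one side: 64 members had a log2 fold change below 0 and 13 above, so that 83.1% lay below, against a background of 51% of all genes. Their median was -0.073, against -0.0073 over all genes. This lean rested on single libraries. Without WT replicate 1 the median of the members was 0.0074, with 40 of the 77 above 0, and without Opa1 KO replicate 2 it was -0.018, with 32 above 0. Leaving out Opa1 KO replicate 1 gave -0.15, and leaving out WT replicate 2 gave -0.16. When libraries were scaled by their totals alone, 31 members lay above 0 (40.3%, against 16.9% in the values as deposited), while the median of all genes moved to 0.045. The median of the members minus that of all genes was -0.066 under both scalings.

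The groups did not overlap in 19 members, with Opa1 KO below WT in 16 (20.8%, against a background of 15.7%), and above WT in 3 (3.90%, against 15.2%). The share below is near the background. The 3 above were Mrpl47, Mrps34 and Mrpl48. In the remaining 58 members the groups overlapped.

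The libraries differed more by replicate than by genotype. WT replicate 1 was the highest library in 55 of the 77 members (71.4%, against 33.5% of all genes) and Opa1 KO replicate 2 the lowest in 50 (64.9%, against 34.0%), with both in 38 members. Replicate 1 lay above replicate 2 in both groups in 60 members (77.9%, against a background of 38.8%). The median difference of replicate 1 from replicate 2 on the log2 scale was 0.12 in Opa1 KO and 0.17 in WT, larger than the median difference between the genotypes. The reads of the members summed to 0.314% and 0.294% of the library in Opa1 KO against 0.330% and 0.294% in WT, replicate 1 before replicate 2. The mean share was 0.304 ± 0.0147% in Opa1 KO and 0.312 ± 0.0251% in WT (SD, n = 2 each), so the means differed by less than either SD. Relative to the WT mean the difference was -2.54%. Leaving out 1 library moved this relative difference to 3.33% (WT replicate 1 out) or 0.79% (Opa1 KO replicate 2 out). The same libraries numbered 1 held more of the progenitor and microglial markers and less of the ependymal markers given above. The cytosolic ribosomal proteins followed the number too, with replicate 1 above replicate 2 in both groups in 78 of 80 genes (97.5%).

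**Figure D3:**
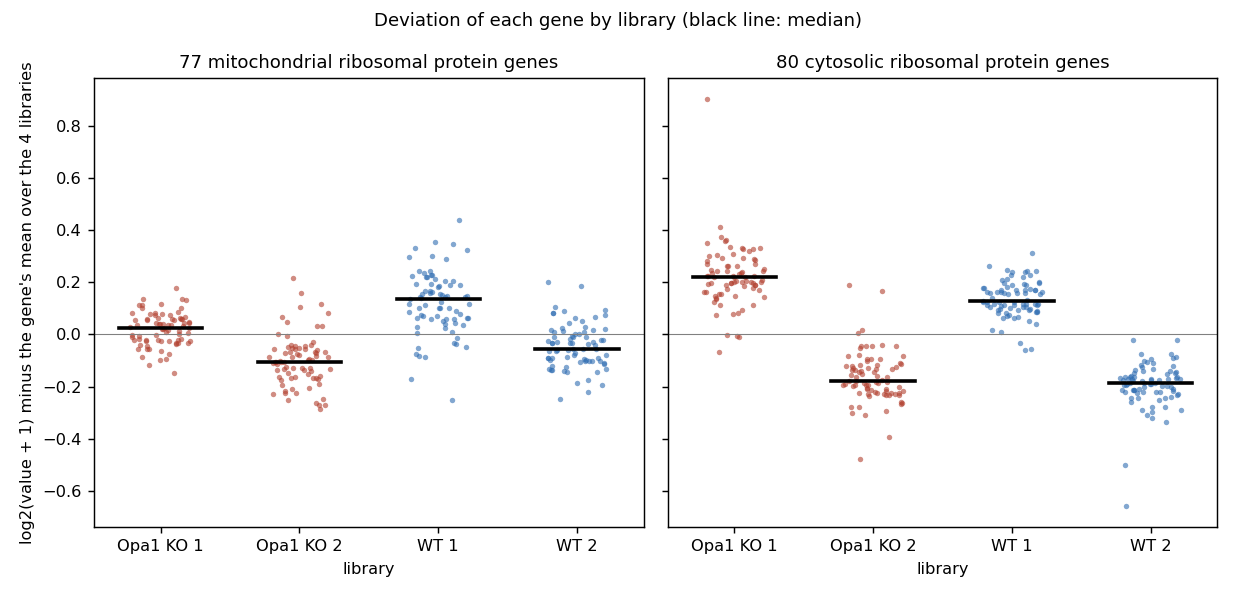
Each point is a gene, placed by its log2(value + 1) in a library minus its mean over the 4 libraries, for the 77 mitochondrial (left) and 80 cytosolic (right) ribosomal protein genes, with medians as black lines. The medians of the mitochondrial genes are 0.026 and -0.10 in Opa1 KO replicates 1 and 2 and 0.14 and -0.055 in WT replicates 1 and 2, so the highest and lowest library belong to different numbers as well as different genotypes.

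Large-subunit genes had 43 of 50 log2 fold changes below 0, at a median of -0.098, and small-subunit genes had 20 of 26 below 0, at a median of -0.060. Without WT replicate 1 these medians were -0.0019 for the large and 0.029 for the small subunit, and with Opa1 KO replicate 2 left out they were -0.033 and 0.028. The reads of large-subunit genes made up 0.218% and 0.204% of the library in Opa1 KO against 0.231% and 0.205% in WT, and those of small-subunit genes 0.0945% and 0.0873% against 0.0960% and 0.0871%. Proteins with a bacterial counterpart (n = 46, median -0.073, 40 below 0) and those particular to mitochondria (n = 30, median -0.089, 23 below 0) had similar medians. None of these groups held a called gene, and the differences between the groups were not tested.

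The large-subunit members at the low end included the member with the lowest fold change and the highest level per kb of exon. Mrpl28 (chr17:26123500-26126613, plus strand) had 1801 and 1561 normalised counts in Opa1 KO against 2370 and 1886 in WT. The groups did not overlap, but the gap between the nearest libraries of the groups was smaller than the gap between the WT libraries. Its log2 fold change was -0.33 (SE 0.17, limma-trend adjusted p = 0.998), and -0.17 without WT replicate 1. Mrpl12 (chr11:120484613-120489065, plus strand) belongs to the stalk that, in bacteria, brings translation factors to the ribosome. It had 911 and 752 counts in Opa1 KO against 1156 and 860 in WT, and the groups overlapped, with replicate 1 higher in each (log2 fold change -0.27, SE 0.21, and -0.054 without WT replicate 1). Mrpl14 (chr17:45686322-45698495, plus strand) sits on the face of the large subunit that meets the small one. It had 472 and 402 counts in Opa1 KO against 567 and 485 in WT, and WT replicate 2 stood just above Opa1 KO replicate 1 (log2 fold change -0.27, SE 0.18).

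Mrpl19 (chr6:81957851-81965958, minus strand), another protein with a bacterial counterpart, had 469 and 474 counts in Opa1 KO against 568 and 534 in WT. Its groups were apart and each was tight, with a log2 fold change of -0.22 (SE 0.14). Of its exon bases, 36.0% are shared with Gcfc2 on the opposite strand. Mrpl54 (chr10:81264713-81266934, minus strand), a protein particular to mitochondria, had 338 and 274 counts in Opa1 KO against 445 and 282 in WT. WT replicate 1 alone stood high, and without it the log2 fold change of -0.22 (SE 0.29) became 0.11. Mrpl34, whose promoter is printed above, had 660 and 602 counts in Opa1 KO against 752 and 695 in WT (chr8:71464959-71465747), apart by less than the spread within either group.

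In the small subunit the lowest fold change was that of Mrps11 (chr7:78783119-78792989, plus strand), a protein of the platform with a bacterial counterpart. It had 379 and 336 counts in Opa1 KO against 434 and 408 in WT, without overlap (log2 fold change -0.24, SE 0.17). Its neighbour Mrpl46, which starts on the opposite strand at the same place, had 641 and 510 counts in Opa1 KO against 711 and 584 in WT, where the groups overlapped. Mrps25 (chr6:92169525-92184033, minus strand) had 576 and 534 counts in Opa1 KO against 651 and 598 in WT, also without overlap. As 69.8% of its exon bases are shared with Nr2c2 on the opposite strand, its counts are uncertain.

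At the other end, Mrpl48 (chr7:100545751-100608301, minus strand), a protein of the large subunit particular to mitochondria, had 934 and 989 counts in Opa1 KO against 860 and 866 in WT. The groups did not overlap, and its log2 fold change of 0.15 (SE 0.12, limma-trend adjusted p = 0.998) was the highest of the members. Its pseudogene Mrpl48-ps, not a member, had 0 and 41.2 counts in Opa1 KO and 0 in both WT libraries, and how reads were split between the copies was not tested. Mrps34 (chr17:24895116-24897502, plus strand) had 149 and 146 counts in Opa1 KO against 136 and 133 in WT, apart but on few reads (log2 fold change 0.13, SE 0.21). Mrpl47 (chr3:32725397-32737605, minus strand) is the counterpart of a protein at the exit of the bacterial nascent-chain tunnel. It had 562 and 595 counts in Opa1 KO against 534 and 558 in WT. Its Opa1 KO replicate 1 stood only just above WT replicate 2. On the opposite strand, Mrpl47 shares 24.2% of its exon bases with Actl6a and Ndufb5, and Mrpl48 shares 8.7% with Rab6a. The counts of both, like those of Mrps34 (77.8% shared), are therefore uncertain. Exon bases shared with other genes also reach 30.5% in Mrps18b, 24.2% in Mrps27, 23.2% in Mrps18c and 19.9% in Mrps6. They reach 13.1% in Mrpl12, 12.2% in Mrpl46, 11.2% in Mrpl14 and 10.1% in Mrpl18. The counts of these members are uncertain in the same way, at both ends of the fold changes.

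The remaining members above 0 overlapped between groups. Mrpl33 (chr5:31596935-31664384, plus strand) had 591 and 734 counts in Opa1 KO against 561 and 654 in WT, and Mrps6 (chr16:92058270-92112227, plus strand) had 682 and 817 in Opa1 KO against 614 and 831 in WT. In both genes replicate 2 was the higher one in each group, the opposite of most members. Mrps18b (chr17:35910379-35916389, minus strand) had 250 and 239 counts in Opa1 KO against 259 and 210 in WT. It is one of a trio of mammalian proteins related to a single bacterial one. Of the others, Mrps18a takes a place in the large subunit, and Mrps18c (chr5:100798627-100804471, plus strand) had 578 and 501 counts in Opa1 KO against 691 and 498 in WT. Mrps18c and Mrpl32 were, with Mrpl54, the members with the widest spread within a group. Mrpl32 (chr13:14608184-14613165, minus strand), which must be cut by the m-AAA protease before it joins the ribosome, had 950 and 810 counts in Opa1 KO against 1166 and 767 in WT, so that the 2 WT libraries enclosed both Opa1 KO libraries.

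**Figure D4:**
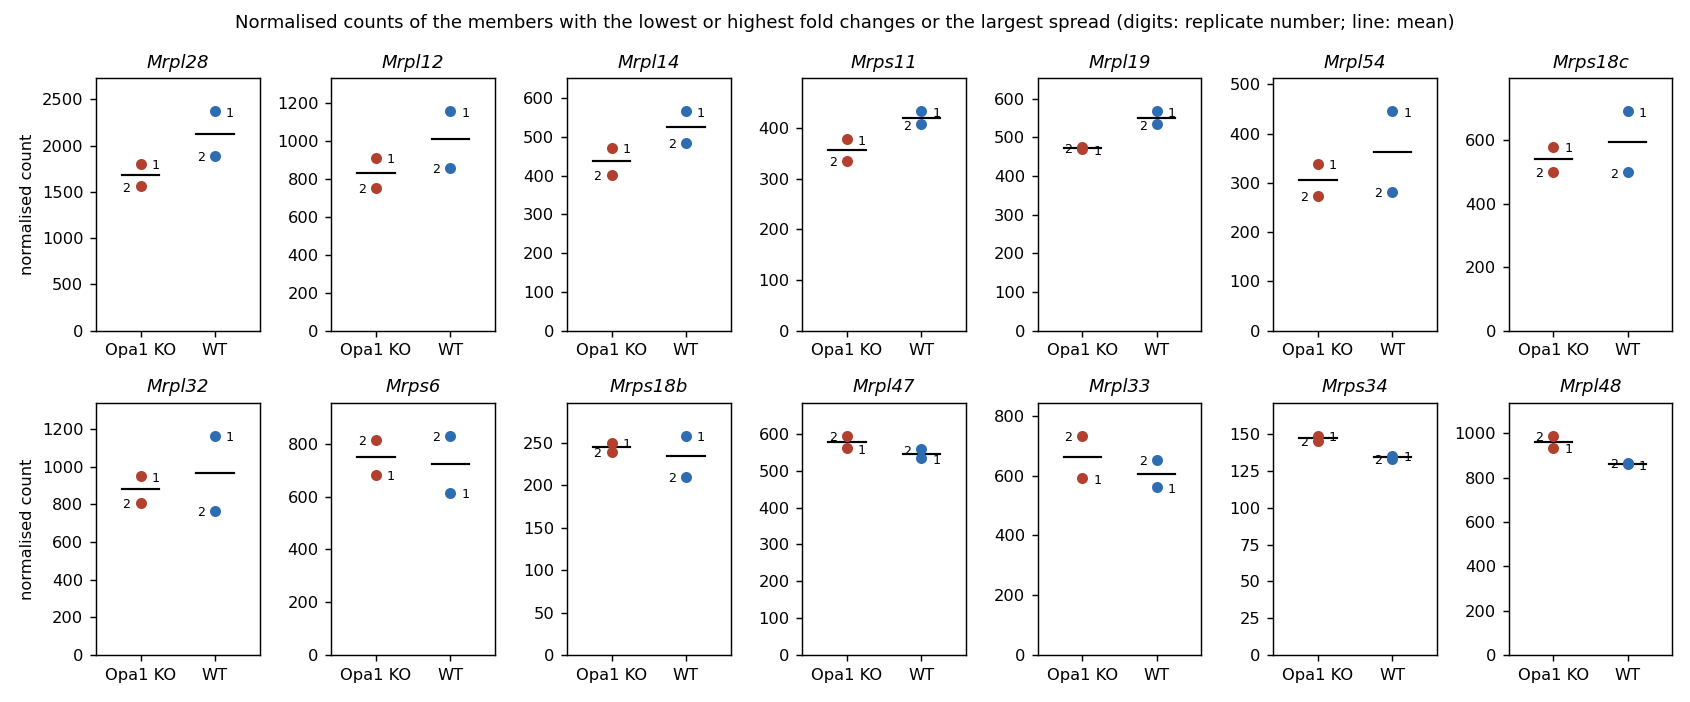
Normalised counts of 14 members in each library, Opa1 KO left of WT, with digits for the replicate number, lines for the mean of 2 libraries and axes from 0. In Mrpl28, Mrpl14, Mrps11 and Mrpl19 the Opa1 KO libraries lie below the WT libraries, in Mrpl47, Mrps34 and Mrpl48 above them, and in the other 7 members shown the groups overlap.

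Of the mitoribosome proteins with other names, Dap3, a GTP-binding protein of the small subunit, had 2049 and 2064 counts in Opa1 KO against 2170 and 2081 in WT. Ptcd3, a pentatricopeptide repeat protein of the small subunit, had 2613 and 2396 in Opa1 KO against 3000 and 2529 in WT. Chchd1 (1018 and 890 in Opa1 KO against 1225 and 856 in WT), Aurkaip1 (785 and 798 against 758 and 734) and Gadd45gip1 (139 and 128 against 138 and 120) complete this list, in which none of 5 genes was called and the median log2 fold change was -0.047. The scaffold RNAs of the ribosome come from mitochondrial DNA. For the small-subunit RNA mt-Rnr1 the log2 difference was 0.16 (SE 0.13) and for the large-subunit RNA mt-Rnr2 it was -0.20 (SE 0.17), both with unadjusted p-values above 0.05 in limma-trend. Their 95% confidence intervals ran from -0.18 to 0.50 for mt-Rnr1 and from -0.66 to 0.26 for mt-Rnr2.

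With all 4 libraries, the rest of the mitochondrial translation machinery was spread around 0. Among 28 assembly and RNA processing factors, 12 were above 0 and 16 below, with a median of -0.0081 and no gene called. Mrm1, which methylates mitochondrial large-subunit rRNA, had 250 and 244 counts in Opa1 KO against 193 and 180 in WT, and Slirp, a binding partner of LRPPRC on mitochondrial mRNA, had 95.8 and 88.1 in Opa1 KO against 144 and 112 in WT, both without overlap. Among 15 translation factors, 7 were above 0 and 8 below. Guf1, a ribosome-bound GTPase, had 3163 and 2932 counts in Opa1 KO against 2721 and 2529 in WT, and Tufm, the elongation factor that brings tRNA to the ribosome, had 1644 and 1397 in Opa1 KO against 1949 and 1626 in WT. Among 22 mitochondrial aminoacyl-tRNA synthetases and related enzymes, 11 were above 0 and 11 below, with Fars2 at 1257 and 1261 counts in Opa1 KO against 1102 and 1083 in WT and Wars2 at 377 and 370 against 320 and 313. None of these was called. The medians of these lists also moved with the library left out. Without Opa1 KO replicate 1 they were -0.046 for assembly and RNA processing, -0.11 for translation factors and -0.092 for the synthetases. Without Opa1 KO replicate 2 they were 0.042, 0.062 and 0.12.

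The nuclear-encoded subunits of the respiratory chain and ATP synthase had values like those of the members: 63 of 75 lay below 0, none was called, and their median was -0.075, which was 0.015 without WT replicate 1. Among them Atp5o, of ATP synthase, had 1519 and 1392 counts in Opa1 KO against 1913 and 1544 in WT, and Ndufb7, of complex I, had 900 and 872 in Opa1 KO against 1147 and 940 in WT. The cytosolic ribosomal proteins had a median of 0.043, with 57 of 80 above 0 and none called. Their direction turned with the library left out: the median was -0.16 without Opa1 KO replicate 1 and -0.11 without WT replicate 2, but 0.24 without Opa1 KO replicate 2 and 0.21 when WT replicate 1 was left out. Rpl22 had 1457 and 1213 counts in Opa1 KO against 1158 and 1042 in WT, and Rpl24, a gene with processed copies, 69.7 and 62.2 against 59.1 and 34.0.

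Of the 13 messenger RNAs that the mitoribosome translates, 11 reached the minimum count and were tested. Of these, 10 of 11 lay below the lowest member, the exception being mt-Nd2 (-0.22, SE 0.18), named after its value was seen, whose groups overlapped. With a minimum of 100 in at least 2 libraries, 10 coding genes remained, at a median of -1.04. All 11 tested coding genes of mitochondrial DNA lay below 0, at a median log2 fold change of -1.05 that stayed between -1.18 and -0.98 when any single library was left out. DESeq2 called 6 of them at an adjusted p under 0.05, limma-trend with genotype only none, although 9 had an unadjusted p under 0.05 there. With a term for the replicate number added, limma-trend called 9 of them at the same threshold. The lowest member, Mrpl28, had a fold change of 0.79, and for mt-Cytb and mt-Co1 the log2 fold changes were -1.09 (SE 0.14) and -1.02 (SE 0.13). The highest bound of mt-Cytb's 95% confidence interval, -0.71, lay below the point estimate of every member. The intervals of some members reached lower than that bound, down to -0.999 for Mrpl54. Among the 11 coding genes the highest bound was 0.45, so not all of their intervals lay below 0. The difference between the lists was not tested.

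**Figure D5:**
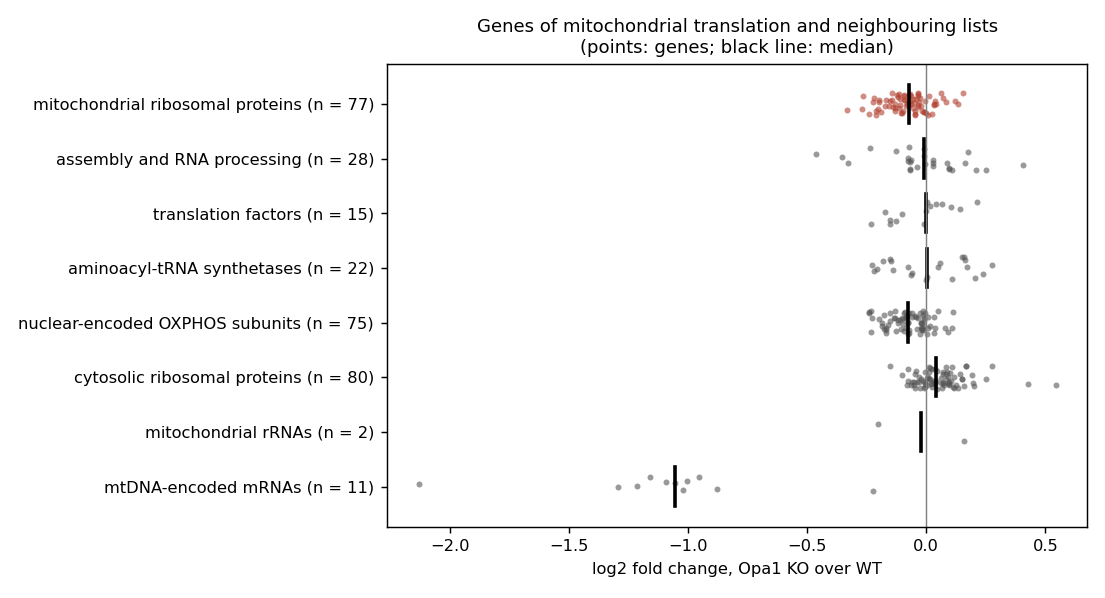
Log2 fold change of Opa1 KO over WT for each gene of the mitochondrial ribosomal proteins (top) and of 7 other lists, with a black line at each median. The members, with a median of -0.073, and the nuclear-encoded subunits, with -0.075, lie close to 0, while the mRNAs of mitochondrial DNA have a median of -1.05.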

How the data were processed

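RNA-seq of 4 libraries, 2 Opa1 KO and 2 WT, was analysed. Per the labels the authors used HISAT2, SAMtools, featureCounts and DESeq2 on mm10, with versions and annotation release not given in the sources used here. Signal as deposited is in normalised counts, that is whole reads per gene divided by 1 size factor per library, and 100% of the values came out whole within 1e-06 when this was undone. The 5 other deposited sheets hold parts of this table or the authors' own comparisons and terms, and were not used. Of 55421 gene rows, 55154 IDs had a symbol in GENCODE M21. Genes with at least 10 in at least 2 libraries (18547) were fitted with limma-trend (limma 3.58.1, R 4.3.3, robust) on log2(value + 1) with genotype only, and p-values were adjusted by Benjamini-Hochberg over all of them. A fold change on this scale understates that of low genes. Alternatives were DESeq2 1.42.0 and edgeR 4.0.16 on the recovered reads (65 and 0 genes called), limma-voom, other pseudocounts, filters and scalings, a replicate term, and leaving out each library. Tests were also run on simulated counts with the same dispersion for every gene and no shared effect of the replicate number. That check does not show how the tests perform on these libraries. Named members were the 6 lowest and 6 highest fold changes, the 4 highest and 4 lowest levels per kb, the 3 widest spreads within a group, the genes beside the minimum, and 2 genes of each other list by smallest p. Other genes named here (Mrpl42, Mrpl46, Mrpl48-ps and the promoter pairs) were picked after their values were seen. The members and lists were chosen with earlier results of these data known.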

Additional observations from a re-analysis of the deposited data

How the results depend on the processing

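No member was called at an adjusted p under 0.05 under any alternative run that kept all 4 libraries. None had an unadjusted p under 0.05 in these runs except 2 (Mrpl28 and Mrpl12) with a replicate block. With that block 3177 of all 18547 genes had an unadjusted p under 0.05, so these 2 members do not stand out. The number of genes called over the whole table was 0 by limma-trend with 666 at an unadjusted p under 0.05, 2 without a filter, 65 by DESeq2 and 182 with the replicate block, and 0 by edgeR and limma-voom. The labels tie the replicate numbers (1 and 2 in the titles, 2 and 4 in the columns) to no batch or animal, and only 2 pairs exist. Libraries of one number deviated alike, but what they share besides the number is not given. The deviations of replicate 1 from the group means had r = 0.718 between the groups over 18547 genes, which are not independent. The number of members above 0 was 13, was 31 when scaled by library totals, and ran from 9 to 40 when 1 library was left out (32 without Opa1 KO replicate 2, 40 without WT replicate 1). Their median ran from -0.16 to 0.0074 and their summed share from -7.78% to 3.33%. With 1 library left out, the log2 fold change ran from -0.16 to 0.28 for Mrps6 (below 0 at -0.066 without Opa1 KO replicate 2 and -0.16 without WT replicate 1), from -0.036 (without Opa1 KO replicate 2) to 0.28 for Mrpl33, from -0.079 (without WT replicate 2) to 0.22 for Mrps18b, from -0.41 to 0.19 for Mrpl32 (above 0 at 0.0065 without Opa1 KO replicate 2 and 0.19 without WT replicate 1), and, with the highest value without WT replicate 1, from -0.55 to 0.11 for Mrpl54 and from -0.36 to 0.11 for Mrps18c. With 1 library left out, the lone library of its group is assumed to vary like the other group. The cause of these changes was not tested. With 2 libraries a group, the intervals do not show a difference of the size of the member median in any single gene.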
